A study of Mus musculus with 4 samples.

Results

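Bnc1, Tgm1, Hr and Nectin4 are genes of epithelial development and function that the study marks as having no AP-2-dependent ATAC-seq peak, on the basis of assignment by distance. The study also lists all 4 with lower RNA levels in whole facial prominences of mutants lacking AP-2α and AP-2β in the ectoderm, at an earlier stage. Those RNA data were not used here. These 4 genes were examined through every row of the deposited peak lists whose centre lies within 100 kb of their transcription start sites. This gave 85 of the 68570 rows in all, made up of 83 of 65467 control peaks and 2 of 3103 AP-2-dependent regions. Because the genes were picked for lacking assigned regions, the counts of regions around them are a description and no test was made on them.

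The surface ectoderm is the thin epithelium that covers the embryonic face and later stratifies into epidermis. AP-2α and AP-2β are transcription factors that bind GC-rich palindromic DNA and take part in the early programme of this epithelium together with p63, GRHL and TEAD factors. ATAC-seq reads open, nucleosome-free DNA from the insertions of a transposase, so that both promoters and distal elements such as enhancers appear as peaks. Among the 4 genes, Bnc1 encodes basonuclin 1, a zinc finger protein of basal keratinocytes and germ cells. Tgm1 encodes transglutaminase 1, which crosslinks proteins of the cornified envelope at the skin surface. Hr encodes hairless, a nuclear corepressor with a JmjC domain that is needed for the hair cycle. Nectin4 encodes an immunoglobulin-like adhesion molecule of epithelial adherens junctions.

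Facial surface ectoderm of mouse embryos was profiled at E11.5 in 4 libraries. The 2 control libraries came from littermates that lacked the ectodermal Cre transgene Crect and carried Tfap2a flox/+ and Tfap2b flox/+. The 2 EDKO libraries came from embryos with Crect, Tfap2a flox/flox and Tfap2b flox/flox, so that the presence of Cre and the loss of both genes cannot be told apart. A control peak is a place where the combined control libraries exceeded the genome-wide background, and an AP-2-dependent region is a place where the combined control libraries exceeded the combined EDKO libraries. The groups share the floxed alleles, although in different dose. Each peak therefore has 1 value per list and no value per library, and neither a replicate error nor a p-value for any comparison could be given. Reads per peak are not given in these lists, and so the depth at any 1 peak is not known from them. A control peak without a region is a place where no decrease was called, which does not show that accessibility was equal. Of the markers of the tissue, 6 of 6 surface ectoderm genes had a control peak centred within 1 kb of the start site (Epcam, Cdh1, Esrp1, Krt8, Krt18 and Tfap2a). So did 4 of 5 mesenchyme and neural crest genes, 2 of 2 neural genes, 1 of 2 blood genes and 0 of 2 endothelial genes, against 63.3% of all protein-coding genes. The part that other cell types had in the peaks described here was not tested.

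The stretches of open chromatin that the results turn on are shown first. The 4 following windows of 201 bases are centred on the summit of 1 control peak for each gene, the strongest near Bnc1, the peak at the start of Tgm1, the upstream peak of Hr and the strongest peak within the body of Nectin4 beyond its start. All are the plus strand of GRCm38 (mm10). Capitals mark the consensus strings searched, which were the shorter AP-2 string GCCNNNGGC, the longer AP-2 string in which GCC and GGC stand 4 bases apart, the TEAD string GGAATG, the GRHL core string AACNNGTT, the PBX string TGANTGACA, and strings for the p53 family and CTCF, each read on both strands.
Bnc1, 3.90 kb upstream, chr7:81996094-81996294: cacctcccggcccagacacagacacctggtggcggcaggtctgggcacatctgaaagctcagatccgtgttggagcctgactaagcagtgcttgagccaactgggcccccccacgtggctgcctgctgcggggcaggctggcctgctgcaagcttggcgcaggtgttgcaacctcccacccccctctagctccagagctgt
Tgm1, 0.862 kb upstream, chr14:55714254-55714454: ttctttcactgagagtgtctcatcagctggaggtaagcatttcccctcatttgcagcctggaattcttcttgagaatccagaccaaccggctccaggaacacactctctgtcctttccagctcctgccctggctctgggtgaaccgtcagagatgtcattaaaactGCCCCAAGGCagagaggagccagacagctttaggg
Hr, 4.19 kb upstream, chr14:70549400-70549600: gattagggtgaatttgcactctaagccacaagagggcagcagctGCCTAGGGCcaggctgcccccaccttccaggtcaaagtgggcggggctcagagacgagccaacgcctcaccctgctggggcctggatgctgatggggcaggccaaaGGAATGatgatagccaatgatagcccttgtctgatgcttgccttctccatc
Nectin4, intron 4, chr1:171384414-171384614: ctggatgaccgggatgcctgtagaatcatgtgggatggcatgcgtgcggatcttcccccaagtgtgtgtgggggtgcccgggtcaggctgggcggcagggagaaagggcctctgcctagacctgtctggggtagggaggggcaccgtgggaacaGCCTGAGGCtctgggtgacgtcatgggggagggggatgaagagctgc

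The Bnc1 window held none of the strings. The Tgm1 window held the longer AP-2 string, the Hr window held the shorter AP-2 string and a TEAD string, and the Nectin4 window held the shorter AP-2 string. A match is a description of the letters and not evidence of binding. The 4 windows were picked by a different rule for each gene and do not stand for the rest. Around all 83 summits the shorter AP-2 string was present in 15 and the longer in 11.

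The 2 AP-2-dependent regions that fell within 100 kb are shown in the same way, since they are the nearest places to any of the 4 genes where accessibility was called lower in the EDKO libraries. Both lie inside other genes.
Region downstream of Hr, chr14:70585742-70585942: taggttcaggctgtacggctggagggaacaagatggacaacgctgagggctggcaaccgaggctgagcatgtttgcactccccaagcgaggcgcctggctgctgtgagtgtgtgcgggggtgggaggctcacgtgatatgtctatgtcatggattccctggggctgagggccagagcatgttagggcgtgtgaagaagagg
Region upstream of Nectin4, chr1:171289067-171289267: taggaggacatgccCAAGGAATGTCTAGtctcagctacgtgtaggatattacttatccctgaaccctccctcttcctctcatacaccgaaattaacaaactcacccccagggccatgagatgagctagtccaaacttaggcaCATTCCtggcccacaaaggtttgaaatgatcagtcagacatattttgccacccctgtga

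The region downstream of Hr held no string at its summit, whereas that upstream of Nectin4 held 2 TEAD strings and 1 p53 family string, of which the first TEAD string lies inside the p53 family string.

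Open chromatin was found at or beside the start of all 4 genes, and none of these peaks overlapped an AP-2-dependent region. The strength of a peak is given here as the −log10 p at its summit, which comes from the combined control libraries and has no error between libraries. Over all control peaks its median was 5.10, and over those centred within 1 kb of a start site it was 9.22. The peak over the start of Bnc1 (chr7:81990795-81993231) was 2437 bp wide with a summit −log10 p of 8.25, higher than in 81.1% of all control peaks. That over the start of Tgm1 (chr14:55713079-55714525) reached 6.47, and that over the start of Nectin4 (chr1:171370008-171370797) reached 9.89. Hr differed from the others in that no peak was centred within 1 kb of its principal start site. Its nearest peak, centred 1.118 kb downstream (chr14:70553865-70555745), reached 8.45 and covered an alternative annotated start of the gene. With start-site peaks required within 1 kb, 3 of the 4 genes had one, against 63.3% of all protein-coding genes, and with a limit of 5 kb all 4 had one.

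For comparison served the epithelial genes that the study marks as having an AP-2-dependent peak, namely the keratins Krt5, Krt14, Krt15 and Krt8, the junctional gene Perp, and the regulators Grhl3 and Trp63. The control peaks nearest to their starts had summit values of 5.61 to 10.4 with a median of 7.46, and those of the 4 genes ran from 6.47 to 9.89 with a median of 8.35, so that the ranges overlapped. Of the 7 nearest peaks, 3 overlapped an AP-2-dependent region (Krt5, Krt15 and Krt14), and 0 of the 4 did. Over the whole list the share was 0.984% within 1 kb of a start site. It was 2.67% at 1 to 5 kb, where the nearest peaks of Hr and Grhl3 were centred. Both sets of genes were chosen by their regions, so nothing is read from the difference between them.

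**Figure D1:**
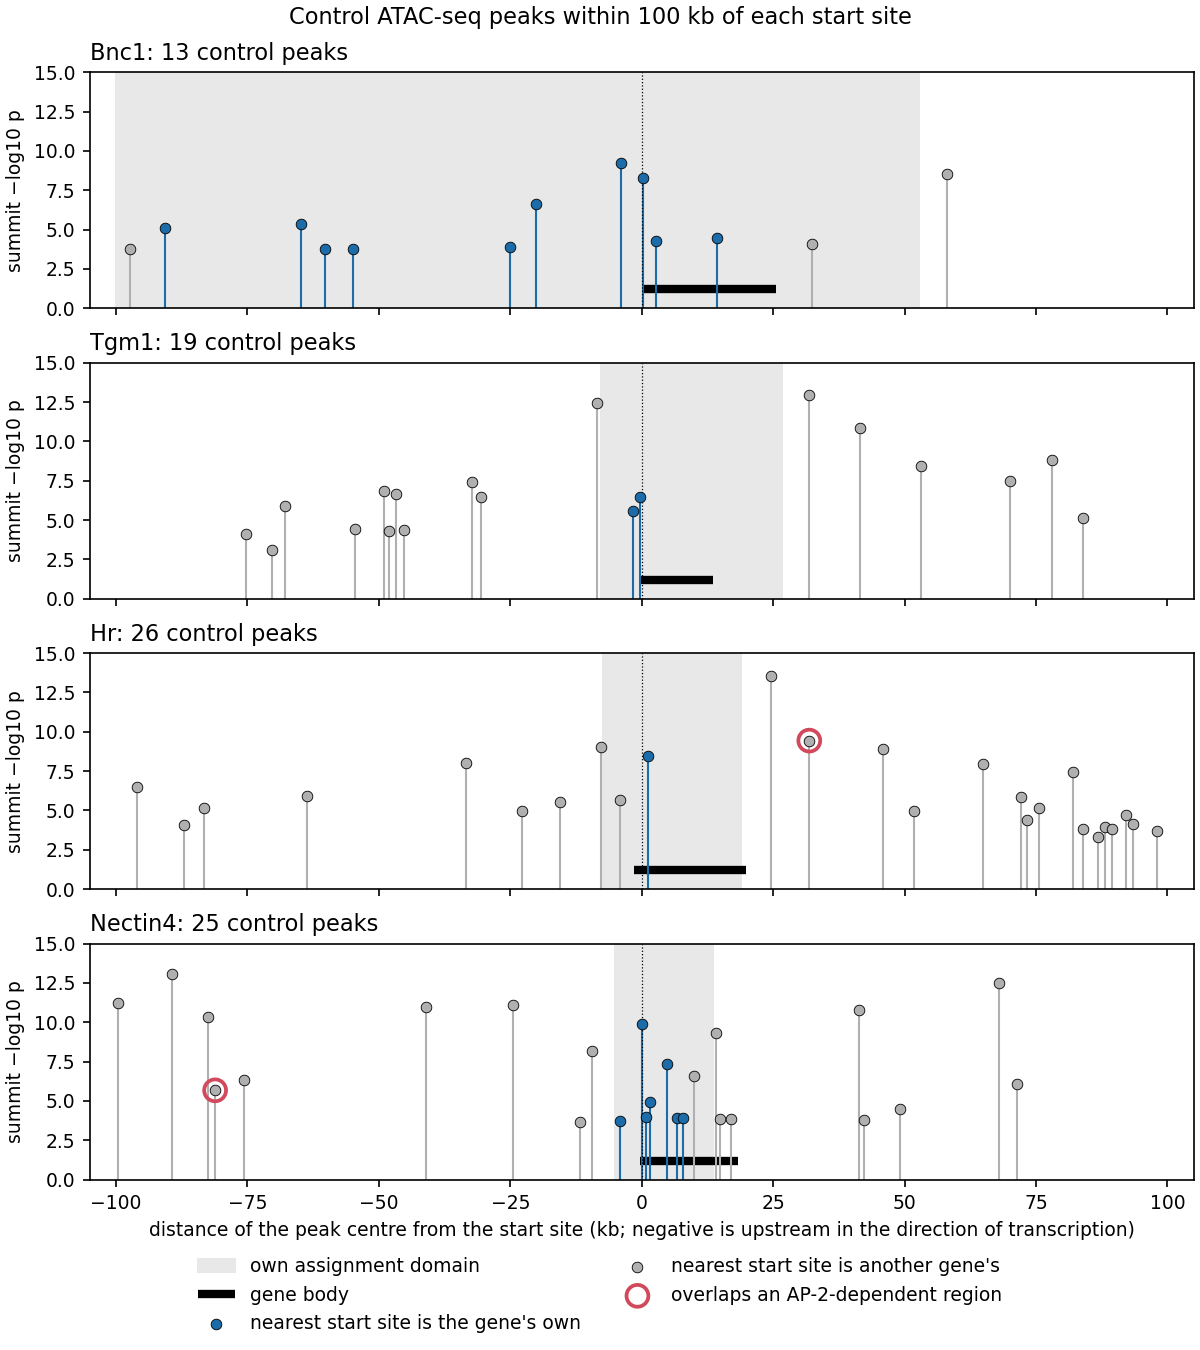
Control peaks within 100 kb of the 4 start sites, with the distance of the peak centre in kb on the x axis and the summit −log10 p on the y axis. Grey shading is the domain in which a region would be assigned to the gene, black bars are gene bodies, blue points have the gene's own start site as the nearest and grey points that of another gene. Red rings mark the 2 peaks that overlap an AP-2-dependent region, 1 in the panel of Hr and 1 in that of Nectin4, both outside the shading.

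The 4 loci differed widely in how their control peaks were arranged, as the plot of peaks by distance shows. Within 100 kb, Bnc1 had 13 control peaks, Tgm1 19, Hr 26 and Nectin4 25, against a median of 8 over all 21853 protein-coding genes. The median summit −log10 p was 4.45 around Bnc1, 6.48 around Tgm1, 5.36 around Hr and 6.30 around Nectin4. The 83 peaks together had a median of 5.68 (95% interval of the median over peaks 4.98 to 6.57), and 49 of them (59.0%) were at or above the median of the list, where 50% of all control peaks lie by construction.

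Bnc1 (ENSMUSG00000025105.9, chr7:81966672-81992292, minus strand) stood in a gene-poor stretch with 1 other start site within 100 kb, that of Hdgfl3. For 10 of its 13 peaks the Bnc1 start was the nearest protein-coding start site. The strongest lay 4.01 kb upstream between genes, with a summit −log10 p of 9.22, above that of the start-site peak. Further upstream the peak at 20.2 kb reached 6.65, that at 64.8 kb reached 5.36 and that at 90.7 kb reached 5.10. Within the gene, a peak in intron 1 at 2.70 kb reached 4.26 and a peak in intron 2 at 14.4 kb reached 4.45. The peak at the start of Hdgfl3, 58.0 kb downstream, reached 8.52. Apart from the Hdgfl3 peak, the open chromatin around Bnc1 thus consisted of a pair at and just upstream of the start and a string of weaker peaks.

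Tgm1 (ENSMUSG00000022218.16, chr14:55700009-55713926, minus strand) showed the opposite arrangement, with 16 other protein-coding start sites within 100 kb. Its own start was the nearest for 2 of the 19 peaks, the start-site peak and a peak 1.66 kb upstream with a summit value of 5.58. No summit lay inside the gene body. The strongest peaks of the window sat at the starts of other genes, with 12.9 at Tinf2, which encodes a shelterin subunit, 12.4 at Rabggta, a subunit of the enzyme that prenylates Rab proteins, and 10.8 at Nedd8, a ubiquitin-like protein. Of the 19 peaks, 11 were within 1 kb of the start of another gene.

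Hr (ENSMUSG00000022096.14, chr14:70552212-70573548, plus strand) had the most peaks of the 4 genes but its own start was the nearest for 1 of them. A further peak lay 4.17 kb upstream with a summit value of 5.68, almost equally near to the start of Reep4. The gene body held 1 summit, in untranslated exon 1. The strongest peak of the window was at the start of Nudt18, a Nudix hydrolase gene, with 13.5, followed by the peak in Fam160b2 with 9.44 and that at the start of Reep4 with 9.06. In the last 20 kb of the window downstream, around the fibroblast growth factor gene Fgf17 and Npm2, lay 8 peaks with summit values of 3.32 to 7.43.

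Nectin4 (ENSMUSG00000006411.12, chr1:171370099-171388598, plus strand) had 11 other start sites within 100 kb, yet 10 of its 25 peaks had their summit inside the gene itself. Besides the start-site peak these included a peak of 2887 bp in intron 1 centred at 4.87 kb with a summit value of 7.35, a peak in intron 1 at 9.87 kb with 6.57 and the peak in intron 4 at 14.1 kb with 9.31. The weaker members of the group were a peak in exon 6 with 3.87 and a peak in the untranslated part of exon 9 with 3.88. The strongest peaks of the window were again at the starts of other genes, with 13.1 at Ppox, an enzyme of haem synthesis, 12.5 at F11r, a tight junction protein, and 11.2 at B4galt3, a galactosyltransferase.

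Over the 4 genes together, 63 of the 83 peaks had the start of another gene as the nearest, and 31 were within 1 kb of the start of another gene. The peaks were nearer to start sites than control peaks in general, which the choice of peaks within 100 kb of a start site favours. Within 1 kb of a protein-coding start lay 42.2% of them (20.2% of all control peaks), at 1 to 5 kb 32.5% (9.93%), and beyond 5 kb 25.3% (69.9%). They were also wider, with a median width of 777 bp against 560 bp. Their median GC content around the summit was 56.7% against 53.2%. Neither value was compared within the distance classes, so the part of distance in these differences was not tested. The sequence under the peaks was unique for the most part, since the median 31-base word occurred 1 time in the genome in 83 of 83 peaks and in both regions.

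Of the 83 control peaks, 2 overlapped an AP-2-dependent region, a share of 2.41% (95% Wilson interval 0.663 to 8.37%, counting error only), against 4.48% of all control peaks. Such overlaps became more frequent away from start sites in the whole list, at 0.984% within 1 kb, 2.67% at 1 to 5 kb and 5.74% beyond 5 kb. Around the 4 genes the counts were 0 of 35, then 1 of 27 and 1 of 21. Since the genes were chosen for lacking regions, nothing is read from these counts.

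**Figure D2:**
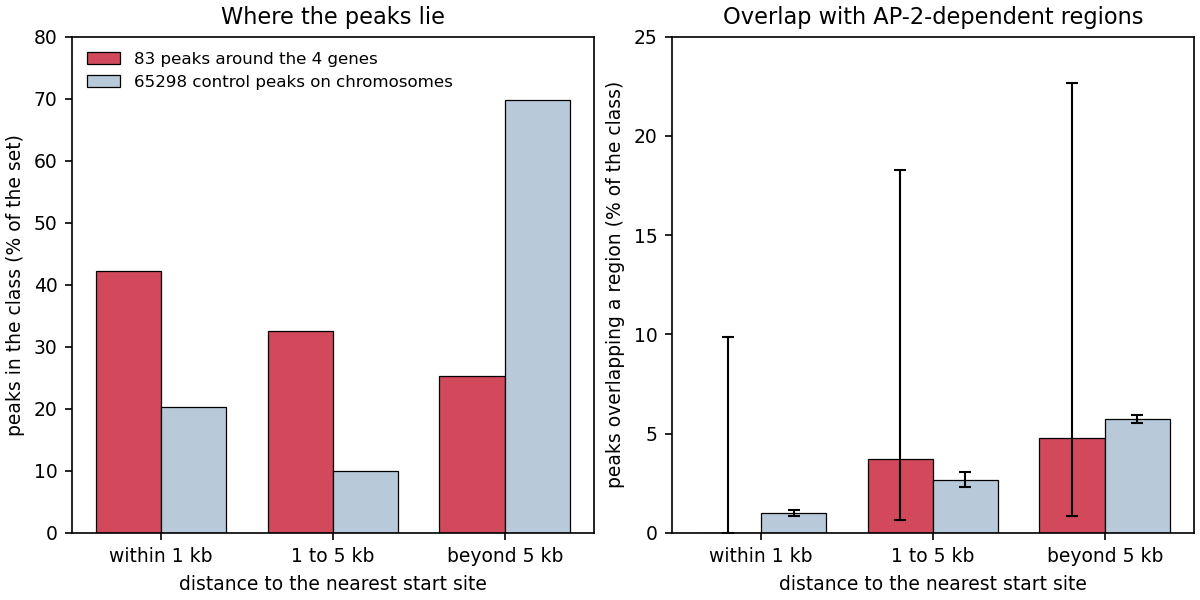
Left, percentage of peaks by distance to the nearest protein-coding start site for the 83 peaks around the 4 genes (red) and the 65298 control peaks on chromosomes (grey-blue). Right, percentage of each class that overlaps an AP-2-dependent region, with 95% Wilson intervals as bars. The peaks around the 4 genes lie more often within 1 kb (42.2 against 20.2%), which the choice of peaks near start sites favours. Their overlaps number 0 of 35, 1 of 27 and 1 of 21.

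The region downstream of Hr (chr14:70585476-70586071, 596 bp) was centred 32.1 kb from its start, with the start of Nudt18 in between. Its summit lay in intron 14 of Fam160b2. It covered 38.6% of a control peak of 1543 bp, and its summit −log10 p of 6.84 was higher than in 86.5% of the regions. By the rule that links regions to genes it was assigned to Nudt18 and to Fam160b2, and not to Hr. Away from the summit the region held the shorter AP-2 string at 2 places, 1 in intron 15 and 1 in coding exon 15 of Fam160b2.

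The region upstream of Nectin4 (chr1:171289000-171289367, 368 bp) was centred 81.2 kb away, with 5 protein-coding start sites in between. Its summit lay in intron 6 of Ufc1, which encodes the conjugating enzyme for the ubiquitin-like protein UFM1, and was at the same base as that of the control peak, of which it covered 51.8%. Its summit −log10 p of 5.67 was higher than in 77.9% of the regions. It was assigned to Usp21, a deubiquitinase gene whose start is 1.26 kb away, and to no other gene. Neither AP-2 string was found in its 368 bp.

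For Bnc1 and Tgm1 the nearest regions were far away. That upstream of Bnc1 was 452 kb off in intron 5 of Adamtsl3, and the next one downstream was 801 kb off. For Tgm1 the distances were 528 kb upstream, near the granzyme genes Gzmc and Gzmb with 27 protein-coding starts in between, and 642 kb downstream in Zfhx2. By contrast, the nearest regions of the 7 comparison genes were 0.111 to 28.6 kb from their starts. Over all protein-coding genes the median distance was 334 kb, and 20.2% of genes had a region within 100 kb, as did Hr and Nectin4 but not Bnc1 and Tgm1. Because the study's marks chose both sets of genes, this contrast describes the sets and supports nothing further.

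The rule that links regions to genes (basal plus extension) gives each gene a basal domain from 5 kb upstream to 1 kb downstream of its start, and extends it on each side until it meets the basal domain of a neighbour. Its default reach of up to 1000 kb was used here, while the methods of the study also name a reach limited to 100 kb for the search of pathways. Under this rule 16.1% of all protein-coding genes had a region in their domain, and 0 of the 4 genes did, as the choice of the genes required. Domain width is not independent of that choice, since the 18339 genes without a region had a median domain of 74.9 kb and the 3514 genes with one had a median of 315 kb. The domain of Bnc1 spanned 230 kb, that of Tgm1 34.4 kb, that of Hr 26.3 kb and that of Nectin4 18.6 kb, against a median of 90.7 kb over all genes. The neighbours closed the domain at 7.71 kb upstream of Tgm1 and at 7.33 kb upstream of Hr. The intron 4 peak of Nectin4, although inside the gene, already fell in the basal domain of the neighbouring gene Arhgap30. With the reach limited to 100 kb the domain of Bnc1 narrowed to 153 kb, the other 3 domains kept their width, and 10.4% of all genes had a region in their domain.

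The number of control peaks in these domains was 15 for Bnc1, 2 for Tgm1, 2 for Hr and 8 for Nectin4, against a median of 3 over all genes. Together the 4 domains held 27 control peaks. With a reach of at most 100 kb, a setting added after the data were seen, Bnc1 had 12 and the 4 domains 24. The comparison genes ranged from 3 control peaks for Krt15 and 4 for Krt14 to 25 for Grhl3 and 49 for Trp63, with domains of 18.6 to 817 kb. The median width was 63.9 kb for these 7 genes and 30.3 kb for the 4 genes, and the ranges overlapped.

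**Figure D3:**
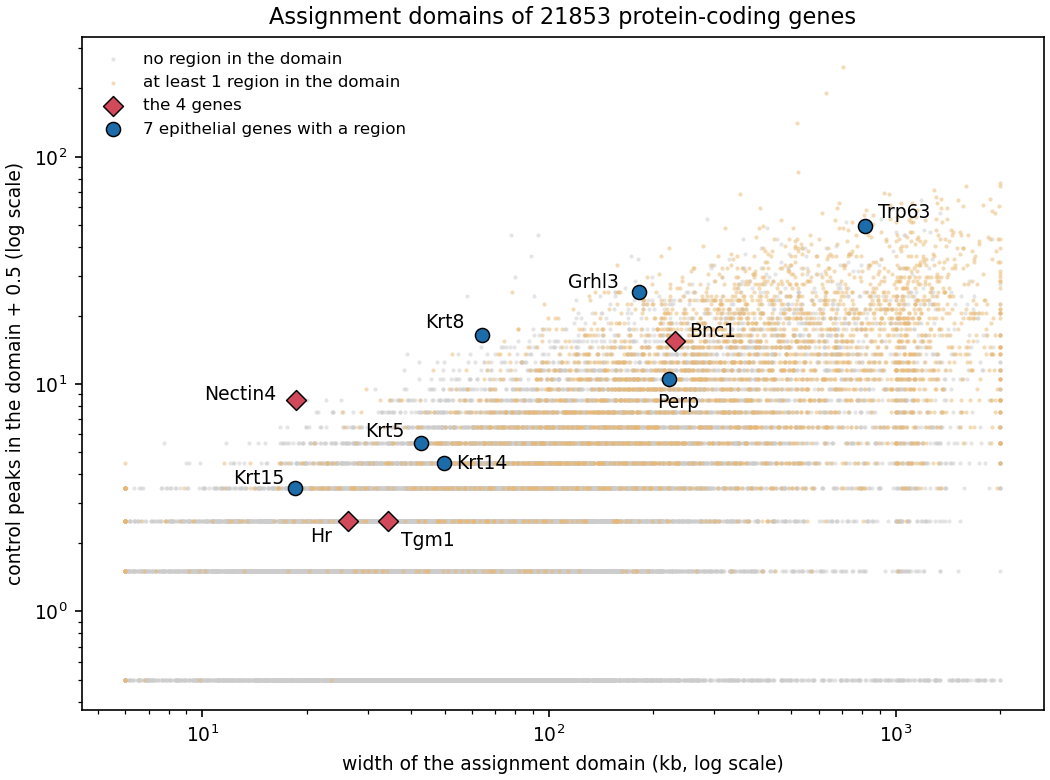
Width of the assignment domain in kb (x axis, log scale) against the number of control peaks in it plus 0.5 (y axis, log scale), 1 point for each of 21853 protein-coding genes, in orange where the domain holds a region. Tgm1, Hr and Nectin4 (red diamonds) have domains of 18.6 to 34.4 kb and Bnc1 one of 230 kb, while the 7 comparison genes (blue circles) span 18.6 to 817 kb.

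Across all genes the share with at least 1 region in the domain rose with the number of control peaks there. It was 0.177% of genes without a control peak, 1.88% with 1, 4.74% with 2 and 11.6% with 3 or 4. With 5 to 8 control peaks it was 22.3%, with 9 to 12 it was 39.4%, with 13 to 20 it was 52.2%, and with 21 or more it was 73.5%. Tgm1 and Hr belonged to the class with 2 control peaks, in which 150 of 3165 genes had a region. Nectin4 belonged to that with 5 to 8, in which 817 of 3670 did, and Bnc1 to that with 13 to 20, in which 721 of 1380 did. With a reach of at most 100 kb Bnc1 moved to the class with 9 to 12 control peaks, in which 399 of 1142 genes (34.9%) had a region. The 4 genes were chosen for having none, so nothing is read from their place in the classes. The classes also differ in domain width, from a median of 56.1 kb for the class of Tgm1 and Hr to 400 kb for that of Bnc1.

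**Figure D4:**
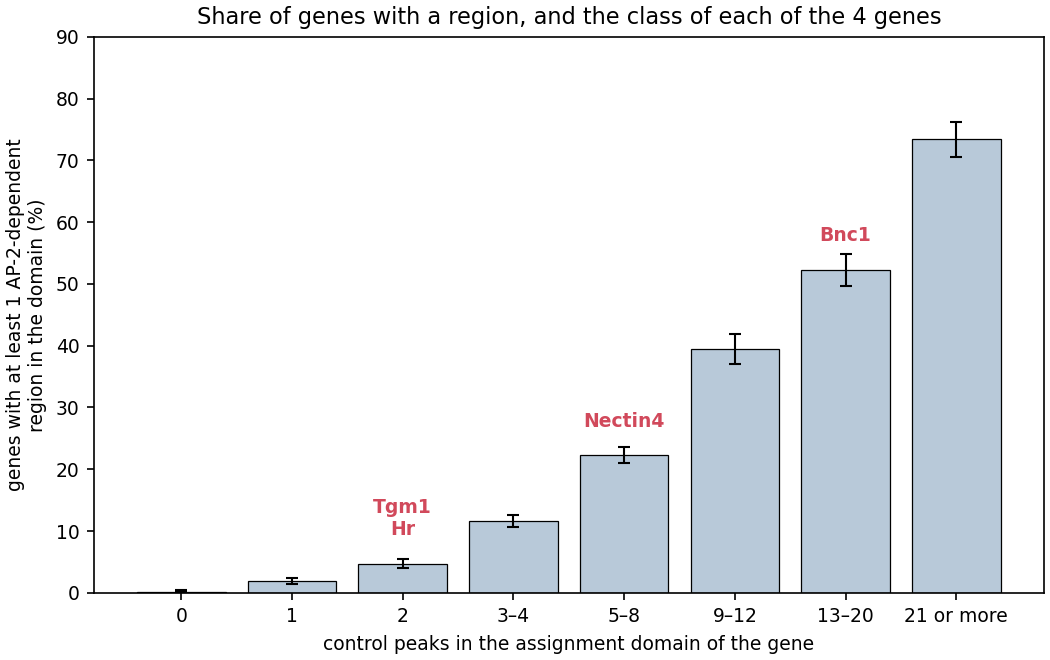
Percentage of protein-coding genes with at least 1 AP-2-dependent region in their assignment domain (y axis) by the number of control peaks in that domain (x axis), with 95% Wilson intervals. The names mark the classes of the 4 genes, at 4.74% for Tgm1 and Hr, 22.3% for Nectin4 and 52.2% for Bnc1.

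The consensus strings were then counted in the 201 bases around each summit. The shorter AP-2 string was present in 15 of the 83 control peaks (18.1%, 95% Wilson interval 11.3 to 27.7%), against 14.4% of the 65298 control peaks on chromosomes and 22.7% of the AP-2-dependent regions. The peaks around Hr held 7 of the 15, those around Nectin4 6, and those around Bnc1 and Tgm1 1 each. Of these, 5 lay in or next to the 4 genes and 10 at other genes, namely at the starts of Tm9sf1, Fam160b2, Usp21, Dedd and Usf1, within Dmtn or just beyond it, and near Npm2. Of the 24 peaks inside the genes' own domains and within 100 kb, 3 held it. Since the string is rich in G and C and the peaks around the 4 genes had the higher GC content given above, the values move together, and the part of GC content in the count was not tested. Within 1 kb of start sites 6 of 35 peaks held the string (17.1%, against 22.1% of all such peaks), and beyond 5 kb 3 of 21 did (14.3%, against 12.3%).

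The 5 places of the string in or next to the 4 genes that lie within 100 bp of a summit are printed with 8 bases on either side, since each lies in chromatin that was open in the controls and was not called lower in the EDKO libraries. A further 9 places lay in the genes' own peaks away from the summits, with 4 at Bnc1, 1 at Hr and 4 at Nectin4, and these are not printed.
Bnc1, intron 2, chr7:81977840-81977864: agatctagGCCCGGGGCctaatctg
Hr, upstream peak, chr14:70549436-70549460: cagcagctGCCTAGGGCcaggctgc
Nectin4, intron 1, chr1:171371705-171371729: gtaggaatGCCATTGGCtgtttctg
Nectin4, intron 4, chr1:171384560-171384584: tgggaacaGCCTGAGGCtctgggtg
Nectin4, untranslated part of exon 9, chr1:171387370-171387394: gggggtctGCCAGAGGCcagaactg

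At Tgm1 the shorter string was absent from both peaks nearest to its start, and each held the longer string. It lay at chr14:55714412-55714437 in the start-site peak (ttaaaactGCCCCAAGGCagagagga) and at chr14:55714970-55714995 in the peak 1.66 kb upstream (gcgggtcaGCCAAAGGGCttcacttg). The longer AP-2 string was found in 11 of the 83 peaks (13.3%), against 12.8% of all control peaks.

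Of the strings for other factors, the TEAD string was found in 14 of 83 peaks (16.9%, against 17.9% of all), with 5 of them around Bnc1. The GRHL core string was found in 4 (4.82%, against 4.87%), among them the start-site peak of Bnc1 and the intron 1 peak of Nectin4 that also held the shorter AP-2 string. Within 1 kb of start sites 3 of 35 peaks held the GRHL string (8.57%, against 1.89% of all such peaks). Beyond 5 kb 0 of 21 did, against 5.75%. These differences by class were not tested. The p53 family string was found in 3 (3.61%, against 8.68%), the CTCF string in 6 (7.23%, against 6.21%), and the PBX string in 0, which allows a share of up to 3.61%, against 2.74%. For all 7 strings the Wilson interval around the 4 genes included the share of the whole list. The interval covers counting error only, and peaks of 4 loci are not replicates. The 83 peaks also lie nearer to start sites than the whole list, so no likeness to the list is read from this.

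In the families of the 4 genes, some relatives had a region in the domain and others had none. Bnc2, the other basonuclin gene, had 14 control peaks within 100 kb and 47 in a domain of 1204 kb, and its nearest region was 1123 kb away. Among the other transglutaminase genes (Tgm2 to Tgm7 and F13a1), 0 of 7 had a region in the domain, against 16.1% of all protein-coding genes. Within 100 kb 1 of the 7 had a region, Tgm6 at 63.0 kb, against 20.2% of all genes. The 7 genes had few control peaks, from 0 in the domain of Tgm4 to 9 in that of Tgm2. The relatives of Hr with a JmjC domain, Kdm3a, Kdm3b and Jmjd1c, had 0 regions in their domains and 1, 3 and 10 control peaks there. In the nectin family the counts differed from those of Nectin4, since Nectin1 had 3 regions in its domain, Nectin3 had 1 and the related receptor gene Pvr had 1, while Nectin2 had 0. Families of this size are too small to set such counts apart from the share over all genes.

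Of 40 epidermal genes set beside the 4, 6 are comparison genes chosen by their regions. Like the 4 genes, 22 of the 40 had no region in the domain, whereas 18 had at least 1. Without those 6 genes, 12 of 34 had a region in the domain (35.3%, against 16.1% of all genes) and 14 had one within 100 kb (41.2%, against 20.2%). These 34 still include Col17a1 and Zfp750, which the study also marks as having an AP-2-dependent peak. The list was drawn up with earlier results of these data known. Nothing is therefore read from these shares or from the group counts below. The 40 genes had a median of 9 control peaks in the domain, against 3 over all genes, and the part of this in the shares was not tested. By group and without the comparison genes, a region in the domain was found for 2 of 7 genes of the basal layer and adhesion, 4 of 9 regulators, 5 of 7 genes of junctions, and 1 of 11 genes of the suprabasal and cornified layers, to which Tgm1 belongs by function. The exception in the last group was Abca12, a lipid transporter of the upper epidermis. Its genes had a median of 4 control peaks in the domain, against 16 for these basal layer genes, 13 for the junction genes and 18 for the regulators.

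The arrangement of Hr and Nectin4, with a region within 100 kb that was assigned to other genes, was also seen for 6 of the 40 genes. These were Alox12b, Aloxe3, Itgb4, Lama3, Lamb3 and Vdr, with 2 to 16 control peaks in their domains. Krt18, outside the 40 genes and also marked by the study as without such a peak, had the same arrangement, with a region 22.5 kb from its start. The share of all protein-coding genes with this arrangement was not computed, so nothing is read from the count. Vdr encodes the vitamin D receptor, with which hairless is known to interact, and its nearest region was 86.4 kb from its start. When control peaks were counted in 10 bins of 20 kb around the start, the epidermal genes most alike were Casp14 and Dsp for Bnc1 (summed absolute difference of 8 peaks each, against a median of 12 over the 40 genes), Lamb3 and Krt15 for Tgm1 (10 and 11, against 17), Zfp750 and Dst for Hr (14 and 16, against 22), and Barx2 and Cdh3 for Nectin4 (12 and 16, against 21). Of these 8 genes, 5 had a region within 100 kb, against 20 of the 40 epidermal genes. The 5 include both genes named for Tgm1, of which Krt15 is a comparison gene chosen by its regions.

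At the limit of 100 kb itself, the outermost peak inside and the nearest outside were at 97.2 and 117 kb upstream for Bnc1, at 84.0 kb downstream and 102 kb upstream for Tgm1, at 98.1 and 106 kb downstream for Hr, and at 99.7 kb upstream and 103 kb downstream for Nectin4. None of these 8 peaks overlapped a region, where 4.48% of all control peaks do, so nothing is read from this. When the limit was widened to 500 kb, Bnc1 gained its first region, Tgm1 still had 0, Hr had 2 and Nectin4 had 9. Over all protein-coding genes the median distance to the nearest region was 334 kb, which lies inside this wider limit. The share of all genes with a region within 500 kb was not computed, so nothing is read from these counts.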

How the data were processed

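ATAC-seq of E11.5 facial surface ectoderm was analysed from 2 deposited peak lists. The authors trimmed reads with NGmerge, mapped them to mm10 with Bowtie2, keeping up to 10 alignments per read, and called peaks with Genrich 0.5 after removal of duplicates and mitochondrial reads. The control libraries were combined for the control peaks and set against the combined EDKO libraries for the AP-2-dependent regions. The authors deposited for each peak the −log10 p at the summit, a score for the whole peak, the area under the −log10 p curve (a second score, at least 200.006 in the control list) and the summit offset. The −log10 p values of the lists rest on different backgrounds and were not compared with each other. Values per library, read depth, sequencing reads, RNA-seq and H3K4me3 data were not used here, so the number of peaks alone sets the precision.

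Start sites were those of the principal transcripts of 21853 protein-coding genes in GENCODE (mouse release 21, GRCm38). All control peaks on the 21 chromosomes lay within the reference ends, and 169 control peaks and 31 regions on scaffolds were not searched for sequence. Regions were assigned by the basal plus extension rule (5 kb upstream, 1 kb downstream, at most 1000 kb, the default of the tool). Overlap was counted from 1 bp. Strings were matched in 100 bp on either side of the summit, and sites were cut with 8 flanking bases from the GRCm38 reference. Intervals are 95% Wilson intervals, limits for a count of 0 use 3 counts, and both cover counting error only. No test was made, since peaks are not replicates. The programs, in Python 3.11.15 with NumPy 2.4.6, were tested on simulated data, where 0 of 500 assignments and 0 of 500 planted strings were wrong. Peaks named in the text are, for each gene, the peak at or nearest the start, the 3 strongest, and those with the shorter AP-2 string at the summit, with further peaks in or near the gene added after their values were seen. The genes most alike were the 2 with the smallest summed difference in counts over bins. The members, gene lists and strings were chosen with earlier results of these data known. For 8 results 34 alternative values were computed, 1 of them added after the data were seen.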

Additional observations from a re-analysis of the deposited data

How the results depend on the processing

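Of 34 alternative values for 8 results, 25 stayed within the margins and 9 moved. The margin was a factor of 1.5 for a count and the 95% interval of the reported value for a share or a median. A reach of at most 100 kb for the domains was added after the data were seen and gave 24 control peaks in place of 27. With a limit of 50 kb the control peaks numbered 45 and the regions 1, and with 250 kb they numbered 166 and 5, of which 4 control peaks overlapped a region. When an overlap had to cover 50% of both intervals, 1 peak overlapped. The share of peaks with GCCNNNGGC was 43.4% over whole peaks and 8.43% within 50 bp of the summit. The median summit −log10 p was 6.82 for peaks with an area of at least 500. No region was assigned to any of the 4 genes under the 5 alternatives of the assignment rule. The choice of the genes largely fixed this outcome in advance, and these 5 are among the 25 that stayed within the margins. The number of genes with a start-site peak was 4 when the limit was 5 kb or any annotated start was allowed. No paired analysis was possible because the libraries of a group were combined in each call, and for the same reason no replicate could be left out. The number of peaks limits what can be seen, and the lists hold no reads per peak.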

Other observations

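The rows around Nectin4 and Hr also cover other epithelial and signalling genes. F11r, which encodes the tight junction protein JAM-A, had the widest of the 83 control peaks at its start, with 3138 bp and a summit −log10 p of 12.5, and a further peak in intron 1 with 6.05. Bmp1, a procollagen proteinase gene upstream of Hr, had a peak at its start with 8.01 and a peak in intron 15 with 5.90. Neither gene had an AP-2-dependent region over these peaks. Over the whole list the share with one was 0.984% within 1 kb of a start site, 2.67% at 1 to 5 kb and 5.74% beyond 5 kb. Nothing is therefore read from the lack of a region here.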
